A study of Mus musculus with 8 samples.

Results

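The regions described here are 293 promoter windows, of 18603 measured, that held both H3K27me3 and RNA in wild-type naive CD4+ T cells. A window was taken when its H3K27me3 coverage area in the WT library was 20 or more and when the WT RNA level of the same gene symbol was 1 or more. Both values are coverage per M reads: H3K27me3 is summed over the 25 bp bins of a 6 kb window centred on a gene start, and RNA is the highest coverage of each exon averaged over the exons of a gene. The windows make up 1.58% of all windows and 4.97% of the 5890 windows at 20 or more. The windows were chosen by the WT H3K27me3 and WT RNA values, so their WT levels and every comparison with WT are a description, and nothing is supported with them. The double KO was also compared with each single KO, which does not use the WT libraries.

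Naive CD4+ T cells had been purified from mouse lymph nodes, and the strain is given as 129SV/B6. The 4 genotypes are WT, a constitutive Ezh1 -/- (called Ezh1 KO), a conditional Ezh2 fl/fl CD4-cre (called Ezh2 KO) and the combination of Ezh1 -/- and Ezh2 fl/fl CD4-cre (double KO). CD4-cre removes floxed sequence while T cells develop in the thymus, so it leaves cells outside the T lineage intact. Each genotype has 1 H3K27me3 ChIP-seq and 1 RNA-seq library, 8 in all, so no value has a replicate spread and no difference has a test. Age, sex and pooling of the animals are not given in the sources used here.

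H3K27me3 is the trimethyl mark that Polycomb repressive complex PRC2 places on lysine 27 of histone H3. Ezh1 and Ezh2 are its alternative catalytic subunits, and CBX proteins of the partner complex PRC1 read the mark. The mark usually lies over CpG-rich promoters of genes that make little RNA, among them developmental regulators and genes of other lineages.

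Depth was recovered from the height of 1 read. It was 78.2 to 88.2 M reads in the 4 ChIP libraries and 36.1 to 94.1 M in the 4 RNA libraries, with the lowest RNA depth in WT. A median member window held 312 to 390 read equivalents per library. Counting intervals (95%, exact Clopper-Pearson) are given for H3K27me3 ratios, and they cover counting error only, since PCR copies of a molecule cannot be told apart from separate molecules here. Of 7 T cell markers 6 were found, all at 1 or more in WT, and their RNA summed to 162.8 to 192.7 per library. All 7 naive T cell markers were at 1 or more in WT, with sums of 85.4 to 111.7. Values per genotype are given below in one order, namely WT, then the Ezh1 KO, then the Ezh2 KO, then the double KO. RNA of Ezh1 was 1.05, 0.196, 1.12 and 0.194, low where the gene is deleted by label. RNA of Ezh2 was 0.925, 0.913, 1.08 and 1.17, and because this is a mean over all exons it does not check the floxed deletion.

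Sequence just upstream of 6 gene starts is printed for members the results below turn on, which differ in CpG content. Each run is from the mm9 assembly, 5′ to 3′ on the strand of the named gene, free of annotated exons, and capitals mark CpG dinucleotides. H2-Ab1 lies at chr17:34399954-34400153 (+ strand), Sgk3 at chr1:9788011-9788210 (+) and Swap70 at chr7:117365017-117365216 (+), and these were the members whose H3K27me3 was furthest below WT in the double KO. Cd3e at chr9:44817674-44817873 (- strand) and Lef1 at chr3:130813189-130813388 (+) are T cell genes whose windows were above WT. The last run, chr10:42303439-42303627 (+), is the whole stretch between the divergent starts of Nr2e1 and Ostm1.
H2-Ab1: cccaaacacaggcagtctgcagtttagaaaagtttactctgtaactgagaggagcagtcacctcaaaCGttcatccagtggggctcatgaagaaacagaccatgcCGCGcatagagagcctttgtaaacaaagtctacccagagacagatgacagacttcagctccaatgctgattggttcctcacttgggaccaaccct
Sgk3: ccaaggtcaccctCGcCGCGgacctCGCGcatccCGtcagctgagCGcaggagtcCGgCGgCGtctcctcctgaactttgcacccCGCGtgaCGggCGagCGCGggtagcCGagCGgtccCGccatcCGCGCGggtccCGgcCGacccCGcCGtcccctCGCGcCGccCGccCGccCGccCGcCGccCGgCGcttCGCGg
Swap70: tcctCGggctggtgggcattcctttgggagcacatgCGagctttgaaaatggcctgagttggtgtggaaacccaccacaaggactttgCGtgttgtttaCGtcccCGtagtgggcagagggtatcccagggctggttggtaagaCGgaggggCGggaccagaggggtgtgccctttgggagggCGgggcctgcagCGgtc
Cd3e: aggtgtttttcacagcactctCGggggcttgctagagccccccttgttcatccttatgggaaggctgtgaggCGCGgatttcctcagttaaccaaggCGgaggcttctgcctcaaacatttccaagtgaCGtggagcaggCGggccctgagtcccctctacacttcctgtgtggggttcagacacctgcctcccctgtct
Lef1: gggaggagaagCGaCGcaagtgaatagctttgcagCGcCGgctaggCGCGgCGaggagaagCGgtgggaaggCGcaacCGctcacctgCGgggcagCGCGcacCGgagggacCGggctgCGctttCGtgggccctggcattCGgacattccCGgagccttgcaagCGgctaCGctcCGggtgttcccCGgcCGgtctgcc
between Nr2e1 and Ostm1: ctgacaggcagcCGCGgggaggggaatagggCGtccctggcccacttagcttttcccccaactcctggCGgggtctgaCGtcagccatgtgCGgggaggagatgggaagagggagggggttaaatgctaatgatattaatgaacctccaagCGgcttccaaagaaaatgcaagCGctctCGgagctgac
The H2-Ab1 run holds 3 CpG in 200 bases, the Cd3e run 6 and the Swap70 run 9, against 24 for Lef1 and 38 for Sgk3. The stretch shared by Nr2e1 and Ostm1 holds 9 CpG in 189 bases. Over 1001 bases around the start, the ratio of observed to expected CpG was 0.28 at H2-Ab1, 0.29 at Cd3e, 0.74 at Swap70, 0.66 at Lef1 and 1.12 at Sgk3. Over all members the median was 0.72, between the 0.58 of marked silent windows and the 0.77 of expressed unmarked windows.

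Marked silent windows, 5581 in number, have a WT mark of 20 or more and WT RNA under 1. Expressed unmarked windows, 4570 in number, have a WT mark under 20 and WT RNA of 1 or more. The members' WT mark ran from 20.03 to 72.6 with a median of 24.6, against medians of 35.2 in marked silent and 9.68 in expressed unmarked windows. Most members sat close to the threshold: 152 had a WT mark of 20 to 25, 59 of 25 to 30, 36 of 30 to 40, 24 of 40 to 50, and 22 of 50 or more. Their WT RNA ran from 1.00 to 165 with a median of 1.97, and 147 of them lay between 1 and 2, 95 between 2 and 5, 36 between 5 and 10, and 15 at 10 or more. Within the members, WT mark and WT RNA had a Pearson r of -0.05 over 293 windows, given as a description. Just inside the mark threshold were Stx4a at 20.025, Nup35 at 20.071 and Rala at 20.085, and just outside it Mapk8 at 19.996, Fbxw2 at 19.992 and Clk4 at 19.956. Just inside the RNA threshold were Leng9 at 1.005, Ciz1 at 1.01 and Pde2a at 1.02, and just outside it Polr3gl at 0.9999, Rnf219 at 0.994 and Slc35a3 at 0.987.

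**Figure D1:**
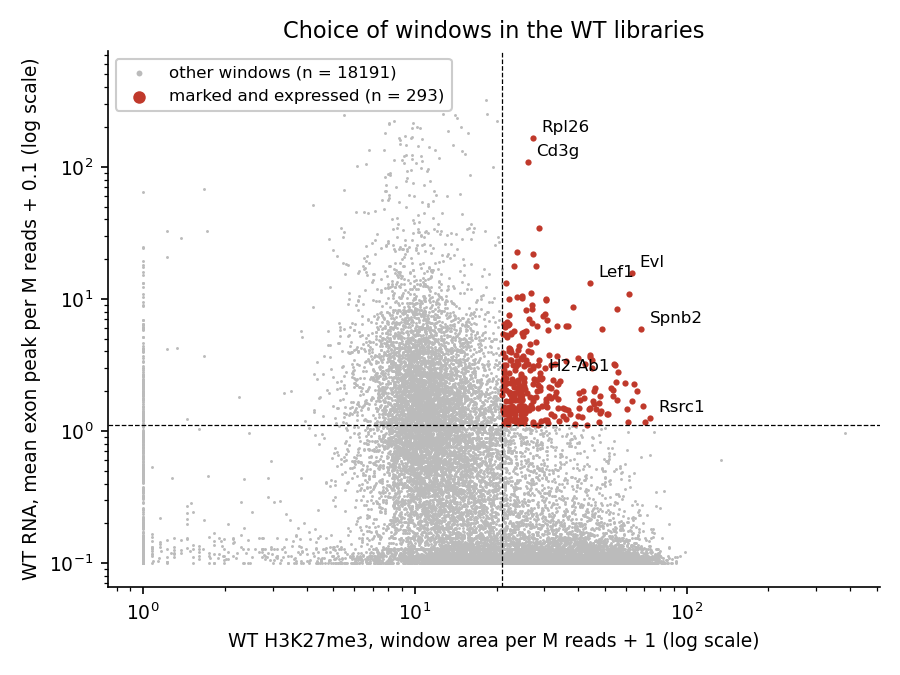
WT H3K27me3 (window area per M reads plus 1, log scale) against WT RNA (mean exon peak per M reads plus 0.1, log scale), with 1 point per window that has an RNA symbol. The 293 marked and expressed windows, in red, fill the corner above both dashed thresholds and thin out towards high values of either measure, so few windows combine a mark of 50 or more with RNA of 10 or more.

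Several of the strongest marks lay in windows shared with a silent neighbour. Rsrc1, which encodes a splicing-related protein, had the highest WT mark, at 72.6, 86.7, 86.7 and 87.7, with RNA of 1.15, 0.963, 1.15 and 0.999. Its window overlaps that of the developmental homeobox gene Shox2, whose start lies 381 bases away and whose WT values were a mark of 68.9 and RNA of 0.00791. Ostm1, a lysosomal chloride transport subunit, had a mark of 63.1, 83.9, 61.6 and 80.6 and RNA of 2.15, 1.76, 1.78 and 1.96. The centre of the window of Nr2e1, a nuclear receptor of neural stem cells, lies 190 bases away, with a WT mark of 61.4 and RNA of 0.00231. Hjurp, a chaperone of centromeric histone, shares its start region with the cold channel gene Trpm8 at a distance of 28 bases, and both windows had a WT mark of 54.7 or 54.8. The prefoldin gene Pfdn4 and the vitamin D hydroxylase gene Cyp24a1 are 717 bases apart, at 58.6 and 60.0. In such pairs the coverage of a 6 kb window cannot be assigned to 1 of the starts.

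Other strongly marked members have more than 1 annotated start. Evl, an actin regulator, had a mark of 61.7, 72.5, 57.9 and 59.3 and RNA of 15.5, 16.0, 17.1 and 14.2, and its furthest annotated start lies 81.0 kb downstream of the window centre. Macf1, which links microtubules and actin, had a mark of 60.4, 75.8, 49.5 and 60.3 and RNA of 10.7, 11.03, 8.16 and 11.4, with the furthest start 318 kb downstream. The spectrin gene Spnb2 had a mark of 67.2, 65.0, 61.2 and 67.7 and RNA of 5.83, 5.99, 5.23 and 6.15, with the furthest start 165 kb downstream. These distances count annotated transcripts of any type. Evl, Macf1 and Spnb2 have 2, 10 and 3 protein-coding starts outside their windows. RNA values are per gene symbol, so they do not say which of the annotated starts was used. The other members among the 10 with the highest WT mark were Tpm1 (tropomyosin), Vps25, H2-Q2, Maml2 (a Notch coactivator) and Wipf1, at 59.7 to 69.1. H2-Q2 belongs to a family of near-identical MHC class I genes and its RNA is uncertain. The Vps25 window is not centred on an annotated Vps25 start, and it overlaps the window of Ramp2, at 69.3 in WT. For 14 members, Vps25 among them, no start of the gene in the annotation used lay within 100 bases of the window centre. Another 8 members had no annotated transcript under their symbol on the chromosome of the window.

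Across the members, 118 had an annotated protein-coding start outside their window, which is 41.4% of the 285 with annotation, against 26.3% of marked silent and 22.9% of expressed unmarked windows. A further measure, overlap with the window of a silent gene, applied to 52 members or 17.7%, against 10.1% and 14.6%. Together 149 members had at least 1 of these features and 21 had both. Windows called single-start here are centred within 100 bases of an annotated start, have no protein-coding start of the gene outside the window and overlap no silent window, although non-coding transcripts of the gene may start elsewhere. They numbered 131 (44.7%), against 61.3% of marked silent and 60.4% of expressed unmarked windows. Of the 22 members with a WT mark of 50 or more, 19 had an outside start or a silent overlap, and 3 (Maml2, Slc26a10 and Bin1) were single-start in this sense. The same count was not made for silent windows at that mark, so nothing is read from it. Maml2, Phf21a and Kpna1 among the 22 are windows with concentrated signal, described below. The shares with outside starts come from annotation that the choice of windows did not use. Silent overlap, and with it the single-start layout, also uses the WT RNA values and threshold of the choice. Overlapping windows share WT coverage as well, so nothing is read from those shares. The sets were not matched on expression, which the choice fixed.

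**Figure D2:**
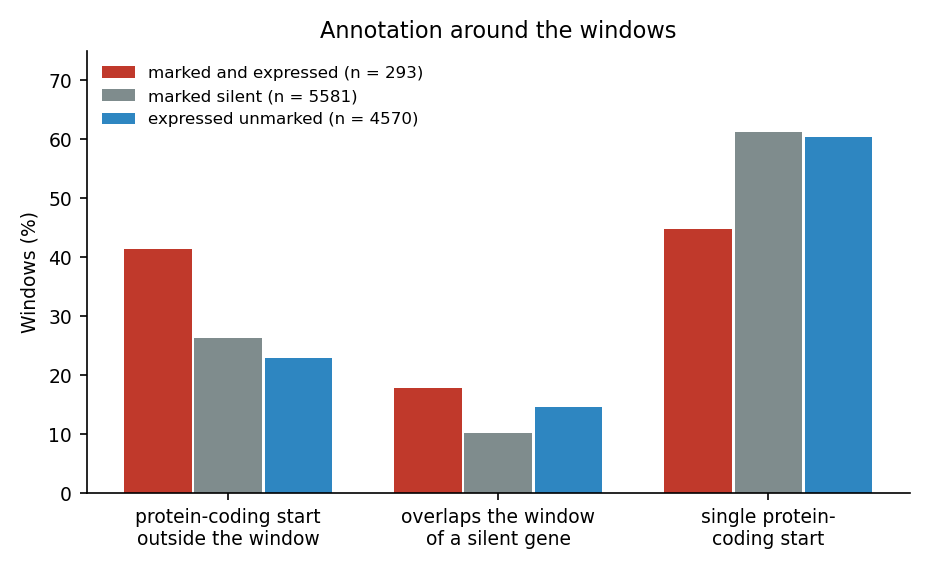
Share of windows (%) with a protein-coding start of the gene outside the window, with overlap of a silent gene's window, or with the single-start layout defined above, for marked and expressed (red), marked silent (grey) and expressed unmarked windows (blue). The first bar group uses annotated windows only. The red bars reach 41.4% and 17.7% in the first groups and 44.7% for single-start windows, where both other sets are at or above 60.4%.

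RNA was not always spread over the whole gene. In 53 members the WT median over exons was under 1, and in 14 it was under 10% of the mean, so that few exons carried the RNA value. Lpl (lipoprotein lipase) is 1 of these, with a mean of 1.27 and a median of 0.0194 over 10 exons in WT, and Slc26a10, H2-Q2, Pde4b and Lars2 are others. Each of 3 pairs of members shared overlapping windows (Hist1h2ah with Hist1h2bk, Commd3 with Bmi1, and Vps26b with Ncapd3), so the 293 windows are not independent. The histone genes are near-identical copies and their RNA is uncertain. Signal in 5 windows (Maml2, Phf21a, Kpna1, Eif4enif1 and Cyb5r4) was concentrated, with the highest bin over 6 times the mean bin.

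In coverage per M reads, most members kept both mark and RNA above the thresholds in the mutants. Of the 293, the mark was 20 or more in 261 (Ezh1 KO), 224 (Ezh2 KO) and 226 (double KO), and RNA was 1 or more in 271, 277 and 273. Both held in 241, 213 and 213, and 179 members met both thresholds in all 4 libraries. Because the WT libraries set the starting count, these counts are no measure of loss. There is also no spike-in. A change of the mark shared by all windows can therefore not be seen in these counts or in the ratios below. Over the whole series 336, 301 and 334 windows met both thresholds in the 3 mutants, against 293 in WT. The median mark over members was 24.6, 27.1, 24.0 and 26.3 and the median RNA 1.97, 1.86, 1.99 and 1.92.

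In the Ezh1 KO the members' median log2 ratio of H3K27me3 to WT was 0.09, equal to that of all 17972 windows tested and between the 0.25 of marked silent and the -0.03 of expressed unmarked windows. TMM scaling moved the members' median to -0.00077. None of the 293 members differed at least 2-fold, against 0.0334% of all windows. At 1.5-fold 7 were higher and 1 was lower, against 1.93% and 0.256% of all windows. In the Ezh2 KO the median was -0.09, against -0.01 for all windows, -0.14 for marked silent and 0.11 for expressed unmarked windows. Again 0 members differed 2-fold (0.0334% of all windows), while 0 were 1.5-fold higher (0.606%) and 4 were 1.5-fold lower (0.795%). The median is moved by scaling: with the expressed unmarked windows set equal between libraries it was -0.24, since that scaling lowers the Ezh2 KO library by 0.15 on the log2 scale, the difference between the median levels of those windows.

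In the double KO the members' median log2 ratio to WT was -0.01, against 0.05 for all windows, while single members spread in both directions. Sgk3 and H2-Ab1 were at least 2-fold lower, and no member was 2-fold higher, against 0.172% of all windows differing 2-fold in either direction. With a pseudocount of 10, or with the highest bin of the window in place of its area (pseudocount of 1), no member was 2-fold lower. At 1.5-fold 21 members (7.17%) were higher and 14 (4.78%) were lower, against 1.14% and 1.48% of all windows. In marked silent windows these shares were 0.735% and 3.12%, and in expressed unmarked windows 1.38% and 0.350%. The counting interval of the ratio, computed for members only, lay above 0 in 63 members and below 0 in 58. Many members lie just above the WT threshold, and the WT library both chose them and enters this ratio. Nothing is therefore read from the shares or from the interval counts.

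The 21 higher members had a median mark of 23.9, 32.9, 31.2 and 41.2. The choice of these members used WT and the double KO, and in both single KO libraries all 21 were above WT as well, comparisons that share the WT library. At Cd3g in the Ezh1 KO the log2 ratio was 0.05, and TMM scaling, which shifts that library by -0.10, puts it below 0. T cell receptor signalling genes were among them. Cd3e, a signalling chain of the T cell receptor complex, had a mark of 23.7, 28.1, 31.9 and 38.4, a log2 ratio of 0.67 in the double KO (counting interval 0.49 to 0.90). Its neighbour Cd3g, another chain of that complex, had 25.1, 25.98, 37.9 and 41.2, a log2 ratio of 0.69 (0.52 to 0.92). At both genes WT was lowest and the double KO highest, and at Cd3g the Ezh1 KO was close to WT. RNA of Cd3e was 5.39, 6.22, 6.49 and 7.33, in the same order as the mark, and RNA of Cd3g was 109, 94.0, 98.4 and 89.9.

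Skap1, an adaptor that couples the receptor to integrin adhesion, had a mark of 29.4, 32.9, 38.8 and 45.0 and RNA of 9.68, 8.76, 7.67 and 8.12. Dgkz, a diacylglycerol kinase that damps receptor signalling, had a mark of 43.0, 61.7, 50.4 and 66.6 and RNA of 3.66, 3.31, 3.38 and 3.41. At Dgkz the Ezh1 KO was nearer the double KO, whereas at Skap1 the Ezh2 KO was nearer. St8sia1, which makes the ganglioside GD3, had the largest ratio of the 21, with a mark of 24.0, 32.8, 35.5 and 45.7 (log2 ratio 0.90, counting interval 0.73 to 1.12) and RNA of 1.29, 1.47, 1.23 and 1.32. Tgfbr3, the TGF-beta co-receptor betaglycan, had 25.7, 32.8, 32.2 and 42.9, and Actn1, the actin cross-linker alpha-actinin, had 25.2, 33.0, 31.3 and 41.9. The median CpG ratio of the 21 was 0.61, under the members' 0.72.

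The 14 lower members had a median mark of 27.6, 26.8, 20.1 and 15.3 and a CpG ratio of 0.81. All 14 were below WT in the Ezh2 KO and 11 were below WT in the Ezh1 KO, comparisons that again share the WT library. Sgk3, a kinase activated downstream of PI3K, had a mark of 34.8, 31.9, 18.4 and 15.1, a log2 ratio of -1.15 in the double KO (counting interval -1.45 to -0.98). Its RNA was 1.37, 1.03, 1.31 and 1.31. The Ezh1 KO lay near WT and the Ezh2 KO near the double KO, and Dock8, an activator of the GTPase Cdc42 in lymphocytes, showed the same order at 43.8, 40.5, 27.4 and 25.4. Rictor, the defining subunit of mTORC2, had 32.2, 26.04, 23.8 and 16.6. The histone pair Hist1h2ah and Hist1h2bk is counted as 2 of the 14 although its windows overlap.

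H2-Ab1, the beta chain of the MHC class II molecule I-A, which antigen-presenting cells use to show peptides to CD4+ T cells, had a mark of 28.0, 30.4, 20.9 and 13.1. Its RNA was 2.45, 3.86, 4.66 and 8.37. The double KO was lowest in mark and highest in RNA, with log2 ratios to WT of -1.04 (counting interval -1.36 to -0.84) and 1.73. Swap70, a guanine nucleotide exchange factor best known from B cells, had a mark of 20.6, 18.1, 14.3 and 10.1 (log2 ratio -0.96, counting interval -1.32 to -0.73) and RNA of 1.94, 1.56, 2.27 and 2.59. These are the members among 50 listed B cell and plasma cell genes. Summed RNA of the 7 B cell markers was in the same order as that of H2-Ab1, at 2.27, 2.50, 4.18 and 7.10. No marker was at 0 in WT and none was at 1 or more there. Cd22 (0.516 in WT, 0.445 in the Ezh1 KO) and Pax5 (0.495 and 0.391) were lower in the Ezh1 KO than in WT. Each of the other markers had the order of the sum. RNA of myeloid and dendritic cell markers summed to 0.784, 1.00, 1.08 and 1.73, with 8 of 9 found and Cd14 at 0 in WT, and Lyz2 (0.275, 0.561, 0.576 and 1.19) made up most of the difference while Fcgr3 and Itgam were lower in the double KO. The part of such cells in the values of H2-Ab1 and Swap70 was not tested, and in bulk samples more (or fewer) cells of a type and more (or less) RNA per cell cannot be told apart.

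**Figure D3:**
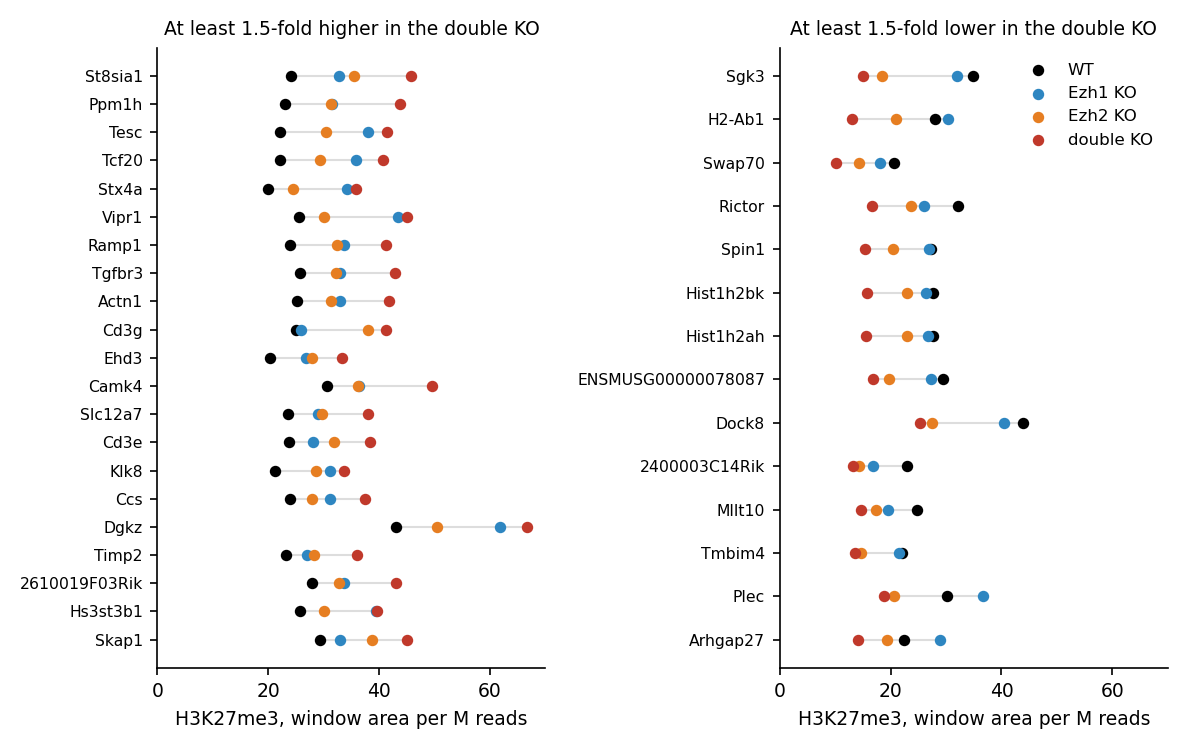
H3K27me3 (window area per M reads) in the 4 genotypes, 1 point per library, for the 21 members at least 1.5-fold higher (left) and the 14 at least 1.5-fold lower (right) in the double KO than in WT, each ordered by its ratio. The choice places red and black points apart. The blue and orange points are right of WT in all 21 higher members, and the orange points are left of WT in all 14 lower members. These comparisons share the WT library that the choice used, so nothing is read from them.

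Against the Ezh1 KO, a comparison free of the WT library, the members had a median of -0.09, against -0.19 in marked silent windows, 0.08 in expressed unmarked windows and -0.05 in all windows. H2-Ab1 (-1.16, counting interval -1.47 to -0.97) and Sgk3 (-1.03, -1.32 to -0.85) were at least 2-fold lower and no member was 2-fold higher, against 0.223% of all windows in either direction. These calls too were lost with a pseudocount of 10 and with the highest bin. At 1.5-fold 14 members (4.78%) were lower and 1, Cd3g, was higher, against 2.18% and 0.373% of all windows, and 4.62% of marked silent windows were lower. The share of lower members was therefore near that of silent windows with the mark. Swap70 (-0.78) and Rictor were among the lower members, as were Plec, Spin1, Dock8 and Arhgap27. The counting interval lay below 0 in 95 members and above 0 in 33. Intervals were computed for members only and move with the scaling of the libraries, so nothing is read from these counts.

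Against the Ezh2 KO the members' median was 0.09, with 0.20 in marked silent windows, -0.06 in expressed unmarked windows and 0.05 in all windows. No member differed at least 2-fold (0.0334% of all windows). At 1.5-fold 2 members were higher, Chd7 and Taok3, and 1 was lower, H2-Ab1 (-0.64), against 0.534% and 0.289% of all windows. Chd7, a chromatin remodeller, had a mark of 27.1, 30.4, 19.4 and 32.2, so the Ezh2 KO stood below the other libraries. Both comparisons share the double KO library. In each the members' median lay between those of marked silent and expressed unmarked windows.

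RNA of the members stayed close to that of all expressed genes. The median log2 ratios to WT were -0.14 (Ezh1 KO), -0.05 (Ezh2 KO) and -0.12 (double KO), against -0.13, -0.04 and -0.10 over all genes tested. In the Ezh1 KO 1 member differed 2-fold (0.442% of all genes), the predicted gene Gm15887, which was lower at 1.55, 0.533, 0.737 and 0.914. At 1.5-fold 4 members were higher and 10 lower, against 0.596% and 2.73% of genes. In the Ezh2 KO 4 members were 2-fold higher and none lower, against 1.5% of genes in either direction, and at 1.5-fold 7 were higher and 8 lower, against 3.39% and 2.81%. In the double KO 3 were 2-fold higher and none lower, against 1.24% in either direction, and at 1.5-fold 6 were higher and 8 lower, against 2.65% and 2.33%.

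The members with 2-fold higher RNA had no common pattern of the mark. Mean RNA of Lpl was 1.27, 2.57, 4.93 and 4.69, higher in all mutants. Its median over exons was 0.0194, 0.0213, 0.0246 and 0.0159, lower in the double KO than in WT. The Lpl mark was 46.9, 63.2, 43.1 and 55.8, higher in the Ezh1 KO and the double KO. In the Ezh2 KO the counting interval of its ratio to WT, -0.29 to 0.05, included 0. Lars2, the mitochondrial leucyl-tRNA synthetase, had RNA of 5.47, 10.6, 24.3 and 15.1 and a mark of 24.3, 22.6, 22.5 and 24.0. At Lars2 and Lpl few exons carry the mean, as given above. Kif1b, a kinesin, had RNA of 1.09, 1.93, 2.84 and 2.26 and a mark of 28.1, 30.5, 24.4 and 36.8. Id2, an inhibitor of E-protein transcription factors, had RNA of 3.65, 3.91, 7.41 and 4.58, highest in the Ezh2 KO, with a mark of 30.3, 33.9, 33.2 and 36.1. Summed RNA of the CD8 T and NK cell markers was 3.25, 2.70, 6.67 and 4.60, with all 7 found and none at 0, and was also highest in the Ezh2 KO. Most of that difference came from Gzma (0.226 in WT, 2.90 in the Ezh2 KO) and Klrb1c (0.110 and 1.03), while Prf1 and Cd8b1 were lower than in WT. The part of such cells in the Id2 value was not tested.

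Against the Ezh1 KO the double KO had a median RNA log2 ratio of 0.05 over members and 0.04 over all genes. H2-Ab1 was the 1 member at least 2-fold different (log2 ratio 1.10), against 0.883% of genes. At 1.5-fold 8 members (2.73%) were higher and 3 (1.02%) lower, against 2.59% and 0.589%. Against the Ezh2 KO the median was -0.07, with -0.06 over all genes, and TMM scaling turned it to 0.08. Nt5e, the ectoenzyme CD73, was the 1 member 2-fold different (0.786% of genes), with RNA of 1.17, 1.36, 1.72 and 0.791 and a mark of 40.3, 42.3, 42.0 and 53.9. At 1.5-fold 2 members were higher and 5 lower (1.71%), against 1.36% and 1.72%. These shares lie near the background, so the members' RNA was not set apart from that of other expressed genes.

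Few members differed in both mark and RNA. In the double KO against WT 3 members passed 1.5-fold in both assays, against 0.306% of the windows tested in both: H2-Ab1 with a lower mark and higher RNA, Klk8 with a higher mark and lower RNA, and Gm15887 with both lower. Klk8, a secreted serine protease gene, had a mark of 21.3, 31.2, 28.5 and 33.6 and RNA of 3.92, 3.35, 3.20 and 2.56, and its window overlaps that of Klk9. Against the Ezh1 KO the 3 members past 1.5-fold in both were H2-Ab1, Swap70 and Gm15887, each with a lower mark and higher RNA in the double KO, against 0.297% of windows. Against the Ezh2 KO it was H2-Ab1 alone, against 0.0414% of windows. In the single KOs against WT there was none, against 0% (Ezh1 KO) and 0.142% (Ezh2 KO) of windows. Among the 21 members with a higher mark in the double KO, RNA was above WT in 9 and below in 12, with log2 ratios of -0.59 to 0.43.

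**Figure D4:**
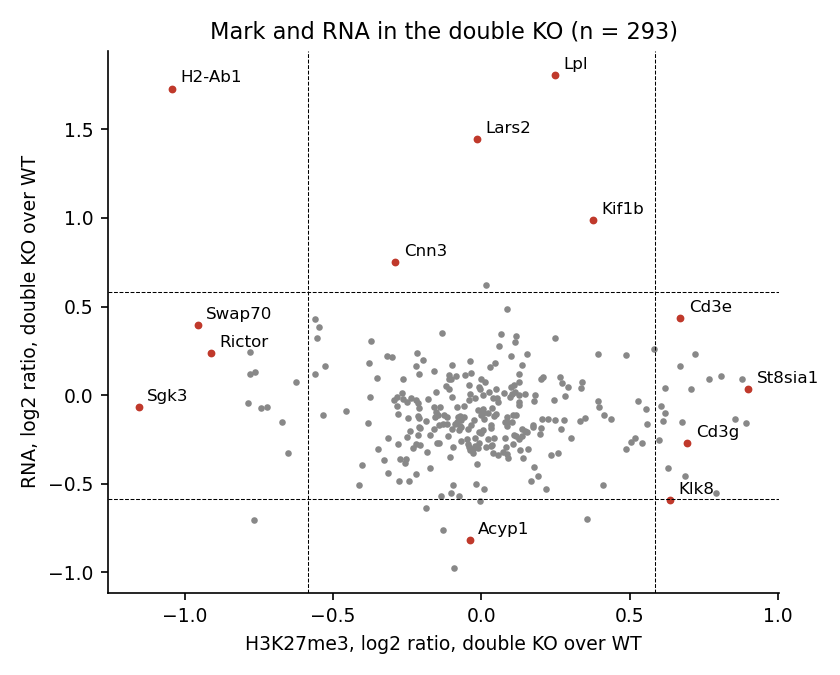
Log2 ratio of the double KO to WT for H3K27me3 (x axis) and RNA (y axis), 1 point per member (n = 293), with dashed lines at 1.5-fold and named members in red. Points scatter around both zero lines with a Pearson r of -0.08, and H2-Ab1 stands alone at the upper left.

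Over the 293 members the Pearson r between the ratio of mark and the ratio of RNA was 0.10 (Ezh1 KO), -0.09 (Ezh2 KO) and -0.08 (double KO), each against WT. It was -0.18 for the double KO against the Ezh1 KO and 0.05 against the Ezh2 KO. These are descriptions across windows that share libraries. A difference in mark of 1.5-fold or more thus went with RNA differences of either sign in these libraries.

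By gene list, 30 members fell into 1 or more of 14 lists, which were written with earlier results of these data known. Of 80 T cell receptor and costimulatory genes 67 were expressed in WT, 13 had a mark of 20 or more, and 6 were members. Besides Cd3e, Cd3g, Skap1 and Dgkz these were Prkcq, a protein kinase C of the immune synapse, with a mark of 20.9, 20.1, 27.3 and 30.6, and the tetraspanin Cd9. The median log2 ratio of the 6 in the double KO was 0.61, with 4 at least 1.5-fold higher and none lower, where 1.14% of all windows and 7.17% of members were higher. The list was written with results known and the ratio uses the WT library that chose the windows, so nothing is read from this count. Of 118 lymphocyte transcription factor genes 5 were members (Ets1, Fos, Id2, Id3 and Lef1), with a median of 0.09 and none past 1.5-fold. Lef1, a partner of beta-catenin that marks naive T cells, had a mark of 43.2, 54.2, 54.8 and 54.9, higher in all 3 mutants, and RNA of 13.0, 12.9, 11.6 and 13.7. Id3 had RNA of 3.48, 1.95, 2.87 and 2.96 with a mark of 23.7, 23.1, 15.8 and 20.3.

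Genes of the Polycomb system carried the mark too. Members from the list of Polycomb and chromatin genes included Bmi1, Cbx7 and Chd7, whose log2 ratios to WT in the double KO were -0.13, 0.00 and 0.24. Bmi1, a RING-finger partner in PRC1, had a mark of 32.7, 33.6, 30.8 and 29.8 and RNA of 1.63, 1.49, 1.91 and 2.10. Cbx7, a reader of the mark, had 22.5 (WT) and 22.6 (double KO). Notch1, the receptor of T lineage commitment, and its coactivator Maml2 were the members of the Notch, Wnt, Hedgehog and TGF-beta list, and Notch1 had a mark of 24.3, 31.8, 17.5 and 22.6. No member came from the lists of cell cycle, interferon-stimulated, myeloid, or CD8 and NK cell genes. Expressed in WT were 25 of 50, 45 of 58, 3 of 54 and 6 of 35 of them. Of the interferon-stimulated genes 0 reached a mark of 20. Across the series 293 expressed windows reached that mark and 4570 did not, so nothing is read from its absence in these lists.

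Of the 10 members with the highest WT RNA, Evl and Lef1 had a WT mark over 40, and the other 8 lay between 20.6 and 27.6. Rpl26, a ribosomal protein gene with many pseudogene copies and so uncertain RNA, had RNA of 165, 114, 138 and 117 and a mark of 26.2, 30.8, 23.0 and 25.8. Lcp1, the leukocyte actin bundler L-plastin, had RNA of 21.6, 20.4, 23.5 and 20.3 and a mark of 26.2, 21.8, 17.4 and 18.8. Ets1, a transcription factor needed by T cells, had RNA of 22.7, 20.9, 18.4 and 18.7 and a mark of 22.9, 24.5, 20.3 and 19.5. At Ets1 and Lcp1 the double KO was below the mark threshold, while RNA in each mutant was within 1.5-fold of WT.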

How the data were processed

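H3K27me3 ChIP-seq and RNA-seq libraries of 4 genotypes were used, 1 per genotype and assay. Per the labels, reads were aligned to mm9 with Bowtie 0.12.7 and kept with at most 2 errors and a single location. Other tools in the submitters' processing notes are Cufflinks, Cuffdiff and bcl2fastq. In both assays the deposited measurement is a signal of coverage. Per the file headers it is an area and a highest bin for start-site windows, and a mean and a median of exon peaks for RNA. The deposited number of exons is another kind of value. Scaling per M reads, the 25 bp bins and an extension of reads to 151 bp were read from the values. Whether input was subtracted is not given in the sources used here, and there is no spike-in.

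Assays were joined by symbol, and 119 windows had none. Log2 ratios used a pseudocount of 1 (ChIP) and 0.1 (RNA) over features at 1 or more in the higher library, and ratios past 2-fold and 1.5-fold were counted. No p was computed. Starts came from GENCODE vM1 on mm9. A start inside the window lies within 3 kb of its centre. Python 3.11.15, numpy 2.4.6, pandas 2.3.3 and scipy 1.17.1 were used, and the ratios were tested on simulated data. Alternatives were TMM scaling (trimming 30% of ratios and 5% of levels), setting expressed unmarked windows equal, other pseudocounts, the highest bin, the median over exons and stricter thresholds. Single-start members, a pseudocount of 0.01 for the highest bin and leaving out concentrated windows were added after seeing the data. Named members were the 10 with the highest WT mark and RNA, those 2-fold different or 1.5-fold different in both assays, up to 4 per list, and those next to a threshold; others (Rictor, Dock8, Plec, Spin1, Arhgap27, Taok3, Hjurp, Pfdn4 and those named for layout or exon use) were chosen after their values were seen. Members and lists were chosen with earlier results of these data known.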

Additional observations from a re-analysis of the deposited data

How the results depend on the processing

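No paired analysis was possible because each genotype has 1 library per assay. Medians close to 0 changed sign: for H3K27me3 the Ezh1 KO against WT with TMM (-0.00077) and the double KO against WT with a WT mark of 30 or more (0.01), and for RNA the double KO against the Ezh2 KO with TMM. Of the counts of 2-fold differences under alternatives, 67 for H3K27me3 and 34 for RNA stayed within 1.5 times of the value given, and 13 and 16, all small counts, did not. For H3K27me3, the 2 members lower in the double KO than in WT became 0 with a pseudocount of 10 and with the highest bin (pseudocount of 1), and 1 with a WT mark of 30 or more (82 members) and with the 131 single-start members. The 2 lower than in the Ezh1 KO became 0 under the first 2 of these settings, 1 under the other 2 and with TMM, and 4 with expressed unmarked windows set equal. Set equal in this way, the median was -0.20 against the Ezh1 KO and, for the Ezh2 KO against WT, -0.24 with 1 member lower. With the highest bin and a pseudocount of 0.01, 1 member was lower in the Ezh2 KO and 1 higher in the double KO, each against WT.

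For RNA, a pseudocount of 1 left 0 members lower in the Ezh1 KO than in WT, 2 higher in the Ezh2 KO than in WT, 0 higher in the double KO than in the Ezh1 KO and 0 lower than in the Ezh2 KO. TMM, which shifts double KO RNA by 0.12 on the log2 scale, gave 2 higher in the Ezh1 KO and 1 lower in the Ezh2 KO, and medians of -0.0069 for the double KO against WT and 0.077 against the Ezh2 KO with 0 lower. The median over exons gave 2 higher and 2 lower in the Ezh2 KO, 1 higher in the double KO against WT, 2 against the Ezh1 KO and 1 against the Ezh2 KO. With WT RNA of 2 or more (146 members) there were 0 lower in the Ezh1 KO, 2 higher in the Ezh2 KO and 0 lower in the double KO than in the Ezh2 KO, and with single-start members 0 lower in the Ezh1 KO. Causes were not tested. Leaving out the 5 concentrated windows moved no count or median past these limits. With 1 library per genotype, differences between genotypes cannot be told apart from differences between animals or preparations.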

Other observations

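Of the neighbouring windows within 50 kb of a member 38.4% were marked in WT, against 41.1% around marked silent windows and 23.2% around expressed unmarked windows. The X chromosome held 2 members of 765 windows (0.261%, against 1.58% over all chromosomes). Mark and expression were not separated there, so nothing is read from this share. Tsc22d3, a glucocorticoid-induced leucine zipper gene, was 1 of them. Its mark was 20.6, 25.7, 17.1 and 17.5 (WT, then the Ezh1 KO, the Ezh2 KO and the double KO). The shape of the signal, given as the highest bin over the mean bin, had a median of 3.31 in members, 2.44 in marked silent and 3.37 in expressed unmarked windows.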
